A study of Mus musculus with 12 samples.

Results

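Semaphorins, the plexins that receive them and the neuropilin co-receptors were followed across the cells of the mouse joint. The genes were taken from the deposited gene table by symbol alone, as semaphorins of classes 3 to 7, plexins A to D and both neuropilins. The pattern matched 34 of 27998 genes. Of these, 31 were protein-coding, with 20 semaphorins, 9 plexins and 2 neuropilins. The remaining 3 were antisense RNAs inside Plxna4 (Plxna4os1, Plxna4os2 and Plxna4os3). The pattern itself used no measured value, but it was chosen with earlier results of these data known.

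Semaphorins are guidance proteins known from growing axons that also steer blood vessels, immune cells and bone cells. Class 3 semaphorins are secreted, and most of them bind a neuropilin, which joins a type A plexin or Plxnd1 to pass the signal on, whereas Sema3e can bind Plxnd1 directly. The other classes are mostly bound to the membrane and bind plexins without a neuropilin, as Sema4d does with Plxnb1, Sema6a with Plxna2 and Plxna4, and Sema7a with Plxnc1. Neuropilins are also co-receptors for vascular endothelial growth factors, and Sema3a is known in bone for its action on osteoblasts and osteoclasts.

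Live CD45-negative cells were sorted from digested hind limb joints of wild type (WT) C57BL/6 mice, which were male and 8 to 10 weeks old per the methods. Serum transfer-induced arthritis (STIA) is a self-resolving joint inflammation, here set off by 100 µl of intravenous serum from K/BxN mice, which carry the KRN T cell receptor transgene. Single-cell 3′ RNA-seq was run on 12 libraries, 3 per label. The labels are rest (no serum, day 0), peak (7 to 9 days after serum), resolving (15 days) and resolved (22 days). A library pooled the joints of 3 animals, so the replicate is a pool and not 1 animal, and the sort left few leukocytes.

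After cell filters 20060 of 21042 cells remained, with 7468914 to 16566202 unique molecular identifiers (UMIs, counted molecules) per library. Every library had the same deposited median of 5358 UMIs per cell, and the barcode sequences of the libraries did not overlap. Cell barcodes end in a suffix from 1 to 12. In summed fibroblasts, 12 of 12 libraries had their closest correlate, over 11858 genes, inside their own run of 3 consecutive suffixes, and 0 of 12 inside their own label. Each run held libraries of 3 different labels, so a group is written below as, for example, the libraries labelled peak. Levels by run are given for some genes in fibroblasts and vascular endothelium, and not for the other comparisons.

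Cells were clustered without the 34 genes and named from fixed markers, which gave 12804 fibroblasts in 11 clusters, 1768 vascular endothelial cells, 1308 osteoblasts, 762 tenocytes, 655 perivascular cells, 312 chondrocytes, 260 muscle cells, 186 lymphatic endothelial cells and 81 Schwann cells. The UMIs of each cell type were summed in each library that had at least 10 such cells. Levels below are UMIs of the gene per 1000000 UMIs of that sum (CPM), and they are compared between cell types and not between genes. Sums existed in all 12 libraries for fibroblasts, vascular endothelial cells, perivascular cells, osteoblasts and tenocytes, in 10 for lymphatic endothelial cells, in 8 each for chondrocytes and muscle and in 3 for Schwann cells. A gene was called when edgeR's quasi-likelihood test gave a Benjamini-Hochberg adjusted p below 0.05 and a log2 fold change beyond 0.5, and every adjusted p below is from that test.

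The filter on low counts passed 22 of the 34 genes in the cell type comparisons, 23 in fibroblast libraries, 12 in vascular endothelial libraries and 10 in fibroblast clusters. These counts, and the medians of fold changes below, are not those of the whole family. A gene high in a single cell type passes more easily than one that is low throughout. Plxna4os1, Plxna4os2, Plxna4os3, Plxnb3, Plxnc1, Sema4g and Sema5b, 7 genes, passed none of these filters. In the library sums of named types with at least 10 cells, Plxna4os2 and Plxna4os3 had 0 UMIs, Plxna4os1 had 51, Plxnb3 13, Sema5b 28, Sema4g 73 and Plxnc1 99.

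**Figure D1:**
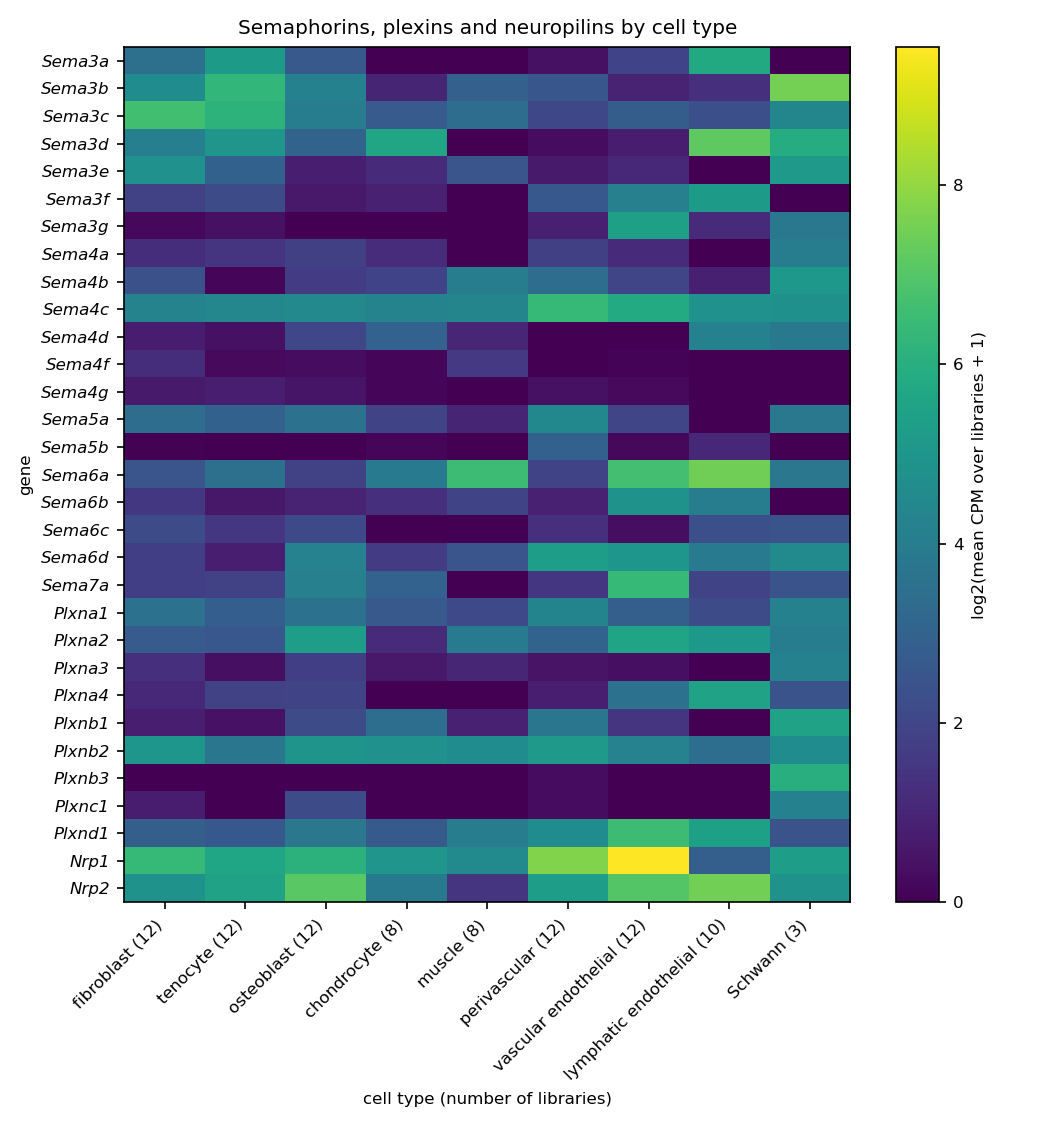
Mean level of the 31 protein-coding semaphorins, plexins and neuropilins in 9 cell types, as log2 of the mean CPM over libraries plus 1. Rows are genes, columns are cell types with their number of libraries, and colours should be read along a row: Nrp1 was brightest in vascular endothelium (743 CPM), Sema3c in fibroblasts (99.1 CPM) and Sema6a in lymphatic endothelium (176 CPM).

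Against fibroblasts, the vascular endothelium differed in 20 of the 22 genes tested. Higher in endothelium were 12 of them, among them Sema3g, Sema7a, Sema6a, Plxnd1 and both neuropilins, and 8 were lower, led by Sema3e, Sema3b and Sema3c. Over all 9018 genes tested, 26.3% were called higher and 27.3% lower. The median log2 fold change of the 22 genes was 1.58, beside -0.000549 over all genes. It covers only genes that passed the filter, some through a high level in endothelium, and is not a shift of the family.

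Sema3c, a secreted ligand known from the developing heart outflow tract, had a lowest, median and highest level of 48.4, 104 and 139 CPM in the fibroblasts of the 12 libraries. In vascular endothelium the same values were 0, 6.31 and 12.2 CPM, so the cell types did not overlap. The log2 fold change was -4.16 ± 0.20 (SE, n = 12 libraries, edgeR adjusted p = 3.48e-34). Tenocytes, at 16.4, 72.1 and 110 CPM, were lower than fibroblasts in 12 of 12 libraries, but by less than the fold required (-0.44 ± 0.15 SE, edgeR adjusted p = 0.0241).

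Sema3e, the ligand that can bind Plxnd1 without a neuropilin, was spread widely among fibroblast libraries, with 5.20, 26.4 and 50.3 CPM. Vascular endothelium had 10 UMIs of it over 12 libraries, with a median of 0 CPM and a log2 fold change of -4.66 ± 0.32 (SE, edgeR adjusted p = 5.69e-23). The lymphatic sums held 0 UMIs of Sema3e among 744414, which allows up to 4.03 CPM, and the level there was at least 6.04-fold lower than in the fibroblasts of those libraries, with 3 counts over the group as the floor. Osteoblasts, tenocytes and perivascular cells were also called lower, by -5.23 ± 0.35, -1.98 ± 0.29 and -4.57 ± 0.48 on the log2 scale. The perivascular value rested on 3 UMIs, a ratio of 0.0402 with an exact 95% counting interval of 0.00828 to 0.118. Intervals and floors here cover counting error only.

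Sema3b, a secreted ligand known as a candidate tumour suppressor, was highest in tenocytes among the cell types with 12 libraries. It stood there at 35.2, 66.8 and 163 CPM, beside 12.4, 23.7 and 35.0 CPM in fibroblasts, and was higher in tenocytes in 12 of 12 libraries (log2 fold change 1.79 ± 0.16 SE, edgeR adjusted p = 1.78e-16). Vascular endothelium, at 0, 0 and 4.29 CPM, was lower than fibroblasts in 12 of 12 libraries (-4.44 ± 0.32 SE).

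Sema3a, the founding repellent of the class, and its close relative Sema3d were higher in lymphatic endothelium than in fibroblasts, where Sema3c and Sema3e were lower. Sema3a stood at 14.9, 55.9 and 94.1 CPM in the lymphatic cells of 10 libraries, at 20.1, 37.3 and 52.8 CPM in tenocytes and at 2.60, 9.60 and 22.2 CPM in fibroblasts. It was called higher than in fibroblasts in lymphatic cells (1.92 ± 0.34 SE, edgeR adjusted p = 1.64e-06) and in tenocytes (1.91 ± 0.23 SE, edgeR adjusted p = 1.87e-10). With coarser clusters (Leiden resolution 0.5), in which the cells named tenocytes were 2507 in place of 762, or with no upper limits on genes and UMIs the tenocyte call was lost, at 0.39 (edgeR adjusted p = 0.143) and 0.64 (edgeR adjusted p = 0.0716). Sema3d reached 102, 136 and 239 CPM in lymphatic cells and 25.9, 47.8 and 74.6 CPM in chondrocytes, beside 4.85, 14.4 and 36.3 CPM in fibroblasts. The lymphatic libraries lay above all fibroblast libraries, and the log2 fold changes were 2.74 ± 0.24 in lymphatic cells and 1.55 ± 0.22 in chondrocytes. In vascular endothelium both were lower than in fibroblasts, Sema3a by -2.12 ± 0.34 and Sema3d by -4.15 ± 0.37. The difference between vascular and lymphatic endothelium was not tested.

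Sema3g, which is known for its expression in endothelium, was found mostly in vascular endothelial cells. Its level there was 25.7, 40.0 and 70.2 CPM over 12 libraries, and in fibroblasts it was 0, 0.150 and 0.408 CPM. The fibroblast sums held 14 UMIs in all, and the log2 fold change was 6.95 ± 0.24 (SE, edgeR adjusted p = 1.28e-36). A UMI of Sema3g was seen in 10.97% of 1768 vascular cells (95% Wilson interval 9.60 to 12.5%) and in 0.109% of 12804 fibroblasts, although the median fibroblast had more UMIs (5767 against 3176). The interval treats cells as independent and leaves out the spread between libraries. With each cell thinned to 2000 UMIs the shares were 7.09% and 0.0318%. Thinning left out 554 of the 20060 cells as too shallow. Sema3f, a class 3 ligand that binds Nrp2, was higher in vascular cells too, at 4.29, 15.9 and 29.4 CPM against 0.728, 2.44 and 4.36 CPM in fibroblasts (2.31 ± 0.26 SE, edgeR adjusted p = 4.06e-13). It was higher in lymphatic cells as well (3.25 ± 0.43 SE, 8 of 10 libraries).

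**Figure D2:**
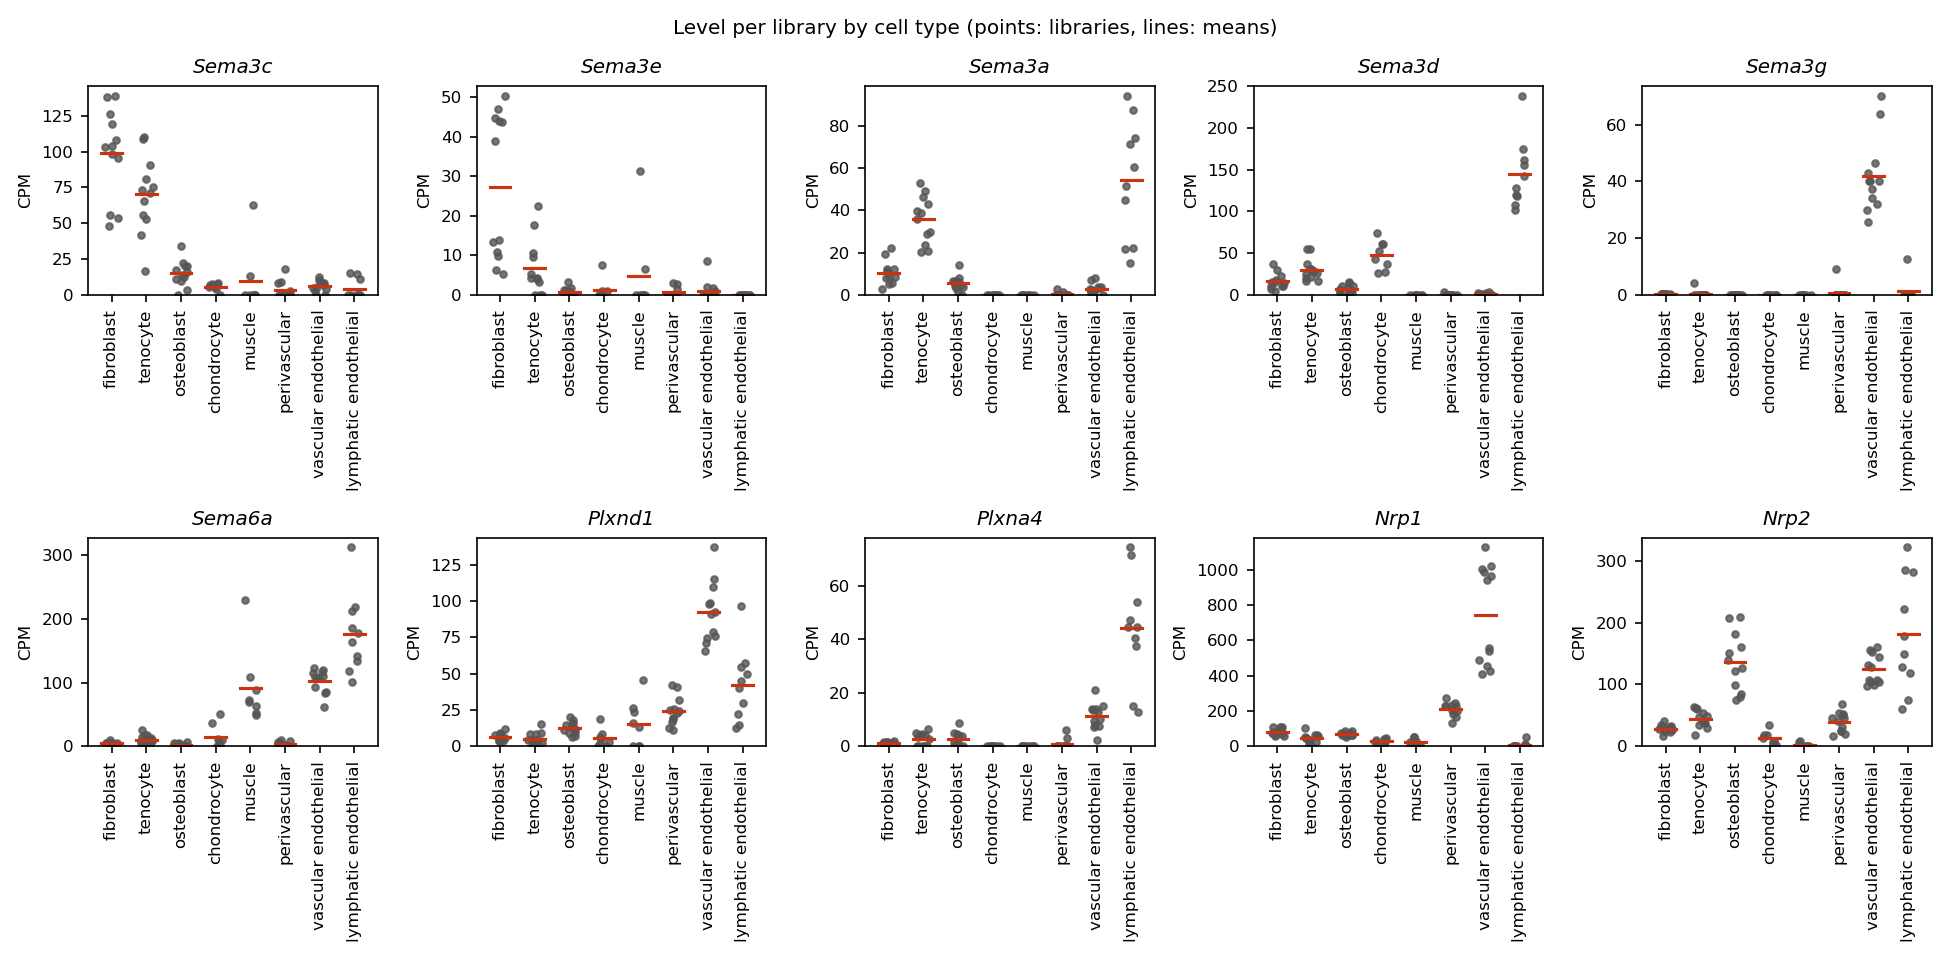
Level of 10 genes in each library by cell type, in CPM on a linear axis that starts at 0, with points for libraries and lines for their means. Sema3c and Sema3e were high in fibroblasts, Sema3g in vascular endothelium, Sema3d and Plxna4 in lymphatic endothelium, and the Nrp1 points of vascular endothelium spread from 406 to 1125 CPM.

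Among the neuropilins, Nrp1 was highest in vascular endothelium. Its level there was 406, 750 and 1125 CPM, beside 56.5, 77.7 and 111 CPM in fibroblasts and 130, 216 and 273 CPM in perivascular cells. Both differences from fibroblasts were called, with log2 fold changes of 2.89 ± 0.16 and 1.15 ± 0.17, each higher in 12 of 12 libraries. Lymphatic endothelium was at the other end, with 5 UMIs over 10 libraries, a median of 0 CPM and a log2 fold change of -4.18 ± 0.50 (SE, edgeR adjusted p = 1.06e-11). A UMI of Nrp1 was seen in 85.5% of vascular and 1.08% of 186 lymphatic cells, and in 70.6% and 0.578% after thinning to 2000 UMIs. The unthinned median depths of these cells were 3176 and 3482 UMIs.

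Nrp2, known as the neuropilin of lymphatic vessels, was called higher than in fibroblasts in both endothelia, in osteoblasts and in tenocytes (0.79 ± 0.17 in the last). Lymphatic cells had 59.6, 164 and 322 CPM, osteoblasts 75.5, 133 and 209 CPM, vascular cells 98.1, 118 and 160 CPM and fibroblasts 16.3, 27.7 and 40.6 CPM. None of the first 3 overlapped with fibroblasts, and their ranges overlapped one another. Their log2 fold changes against fibroblasts were 2.07 ± 0.19, 2.16 ± 0.12 and 1.84 ± 0.12. Chondrocytes were lower (-1.54 ± 0.29), and so were muscle cells, with 2 UMIs over 8 libraries and a ratio to fibroblasts of 0.102 (exact 95% counting interval 0.0123 to 0.368).

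Of the plexins, Plxnd1 is the receptor that Sema3e acts through in vessels. It stood at 65.5, 91.6 and 137 CPM in vascular endothelium, 12.8, 42.6 and 96.8 CPM in lymphatic cells and 3.64, 6.15 and 11.6 CPM in fibroblasts. The vascular log2 fold change was 3.56 ± 0.12 (SE, edgeR adjusted p = 3.80e-46), the lowest adjusted p of the family in this comparison, and the lymphatic one was 2.23 ± 0.29. Plxna4, a receptor for Sema3a and Sema6a, was at 12.8, 44.6 and 74.3 CPM in lymphatic cells and 2.46, 11.4 and 21.1 CPM in vascular cells, beside 0.204, 1.23 and 1.83 CPM in fibroblasts. All 10 lymphatic libraries were above the fibroblasts of the same library (4.60 ± 0.42 SE, edgeR adjusted p = 3.63e-16). The antisense RNA Plxna4os1 lies inside Plxna4 on the other strand and had 51 UMIs, 43 of them in vascular cells, too few for a test. How strand was used in counting is not given in the sources used here, so the reads of this pair may not be fully separated.

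Plxna2, a receptor for class 6 semaphorins, was at 28.4, 35.5 and 68.7 CPM in osteoblasts and 25.7, 45.3 and 72.0 CPM in vascular cells, beside 3.67, 5.49 and 9.67 CPM in fibroblasts. The osteoblast log2 fold change was 2.61 ± 0.16 (SE, edgeR adjusted p = 4.80e-26). Plxnb1, the receptor of Sema4d, was low in fibroblasts (0, 0.610 and 1.43 CPM) and was called higher in perivascular cells (3.36 ± 0.36), chondrocytes (3.75 ± 0.38), osteoblasts (1.92 ± 0.35) and Schwann cells (5.59 ± 0.78). Plxnb2 had means of 10.0 to 34.0 CPM in the 9 cell types, and it was called lower than in fibroblasts in vascular, lymphatic and tendon cells. Plxnb3 was not tested, with 9 UMIs in the 3 Schwann sums (38.6, 40.3 and 105 CPM) and 2 UMIs in all fibroblasts.

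Several membrane-bound semaphorins were higher in cells of the vessel wall than in fibroblasts. Sema6a was at 61.9, 108 and 123 CPM in vascular cells, 101, 171 and 312 CPM in lymphatic cells and 48.7, 70.8 and 229 CPM in muscle, beside 1.83, 4.50 and 10.6 CPM in fibroblasts. These ranges lay above fibroblasts without overlap, with log2 fold changes of 4.17 ± 0.17, 4.72 ± 0.27 and 3.80 ± 0.37 (edgeR adjusted p = 1.14e-39, 7.29e-29 and 3.00e-15). Sema7a, a lipid-anchored semaphorin, was at 57.7, 82.9 and 116 CPM in vascular cells and 2.29, 15.2 and 33.7 CPM in osteoblasts, beside 0.611, 2.25 and 4.63 CPM in fibroblasts. Its log2 fold changes were 4.801 ± 0.19 and 2.68 ± 0.25, higher in 12 and in 11 of 12 libraries. Its receptor gene Plxnc1 had 58 UMIs in fibroblasts and 34 in osteoblasts and was not tested. Sema4c, a partner of Plxnb2, was at 33.1, 86.8 and 133 CPM in perivascular cells, 33.0, 48.2 and 85.7 CPM in vascular cells and 10.5, 17.6 and 29.2 CPM in fibroblasts, and was called higher in both. Sema6d, a ligand of Plxna1, was called higher than in fibroblasts in perivascular, vascular, lymphatic, osteoblast and Schwann cells, most in the perivascular cells (3.76 ± 0.23).

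Sema4d, which acts through Plxnb1, was low but unevenly spread. Lymphatic cells had 0, 14.9 and 44.7 CPM and chondrocytes 0, 7.09 and 18.7 CPM, beside 0, 0.690 and 1.22 CPM in fibroblasts, and both were called higher (4.02 ± 0.52 and 2.92 ± 0.44). The vascular sums held 0 UMIs of it among 7451336, and the level was at least 1.69-fold lower than in fibroblasts. In chondrocytes Sema3a was at 0 UMIs, at least 11.2-fold lower than in fibroblasts.

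The other comparisons with fibroblasts called fewer of the 22 genes. Lymphatic endothelium differed in 17, with 11 higher and 6 lower (13.7% and 27.2% of all genes), and its median log2 fold change was 1.84 beside -0.28 over all genes. Perivascular cells differed in 11, with 6 higher and 5 lower (18.2% and 23.7%), and osteoblasts in 17, with 8 higher and 9 lower (12.2% and 16.6%). Chondrocytes differed in 15, with 5 higher and 10 lower (19.9% and 29.0%), and tenocytes in 9, with 5 higher and 4 lower (8.06% and 12.5%). The median of the chondrocyte comparison was -0.83, or -0.56 with genes at 0 UMIs set to their bound. Muscle differed in 9, with 2 higher and 7 lower (12.1% and 29.7%), and Schwann cells in 8, with 6 higher and 2 lower (5.13% and 11.7%).

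Among those called, perivascular cells were lower in Sema3c (-4.37 ± 0.28) and in Sema3d, which had 1 UMI there (ratio 0.0223, exact 95% counting interval 0.000564 to 0.124). Lymphatic cells were lower in Sema3c, with 3 UMIs (ratio 0.0411, 0.00846 to 0.120), and in Sema3b, with 1 UMI (ratio 0.0588, 0.00149 to 0.328). Chondrocytes were lower in Sema3e and Sema3b, each with 3 UMIs (ratios 0.0404 and 0.0355), and higher in Sema7a (1.67 ± 0.44), which was above fibroblasts in 5 of 8 libraries. Osteoblasts were higher in Sema6d (2.65 ± 0.22) and lower in Sema3c (-2.84 ± 0.17) and Sema3f (-1.83 ± 0.54). With each cell thinned to 2000 UMIs the chondrocyte Sema7a call (1.61, edgeR adjusted p = 0.102) and the osteoblast Sema3f call (-1.50, edgeR adjusted p = 0.0891) were lost. Tenocytes were higher in Sema6a (1.12 ± 0.37, lost with coarser clusters at 0.22, edgeR adjusted p = 0.597) and lower in Plxnb2 (-1.15 ± 0.18) and in Sema4b, which had 1 UMI (ratio 0.0655, 0.00165 to 0.368) and was also lost with coarser clusters (-0.61, edgeR adjusted p = 0.0926). Muscle held 0 UMIs of Sema3d and of Sema3a, at least 4.51-fold and 2.94-fold lower than in fibroblasts. It was lower in Sema3c (-4.14 ± 0.46) and higher in Sema4b (1.57 ± 0.48). The muscle Sema4b call was lost without the first library labelled rest (1.31, edgeR adjusted p = 0.0615). In the 3 Schwann sums, Sema3g and Sema4d were called higher on 2 and 3 UMIs (ratios 82.1 with 6.86 to 717, and 30.8 with 5.57 to 114), in 2 and in 1 of the 3 libraries, and Sema3c (-2.72 ± 0.63) and Nrp1 (-2.06 ± 0.69) were lower. Without the third library labelled peak or the third labelled resolved, 3 and 5 Schwann genes were called in place of 8, and the Nrp1 call was lost under DESeq2 as well (-1.47, DESeq2 adjusted p = 0.161).

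The vascular cells fell into 2 clusters, 1082 cells led by Timp4 and Gpihbp1, genes of capillaries, and 686 led by Plvap and Selp, genes of venules. They are described without a test, since both were drawn from the same cells. Nrp1 had 745, 1081 and 1363 CPM in the capillary-led cluster and 283, 473 and 660 CPM in the other, and was higher in the first in 12 of 12 libraries. Sema3g was also higher in the capillary-led cluster in 11 of 12 libraries (medians 49.5 and 27.7 CPM). Plxnd1 (medians 67.7 and 106 CPM) and Plxnb2 (medians 1.56 and 27.9 CPM) went the other way in 12 of 12 libraries. So did Nrp2, Sema3f and Sema6d in 11 of 12 each.

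Within fibroblasts, the cluster led by F13a1 and Prg4 (1035 cells) was named lining-like, from lubricin and other markers of the layer facing the joint space. The cluster led by Pi16, Stmn4 and Dpp4 (1496 cells) was named sublining-like. The filter passed 10 of the 34 genes, and 9 differed: 6 were higher in lining-like cells and 3 lower. Among all 7301 genes, 14.7% were higher and 16.2% lower. Clusters were built without these genes but from other genes of the same cells.

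The widest differences were those of Sema3a, Sema5a and Sema3d. Sema3a was at 18.2, 70.5 and 119 CPM there and at 0, 1.92 and 7.46 CPM in sublining-like cells, and Sema5a, a membrane semaphorin with thrombospondin repeats, was at 26.4, 47.9 and 68.2 CPM against 0, 2.65 and 7.57 CPM. Neither overlapped, and the log2 fold changes were 4.87 ± 0.27 and 3.91 ± 0.28 (edgeR adjusted p = 9.05e-32 and 1.35e-23). Sema3d was at 21.5, 62.8 and 134 CPM against 6.94, 12.7 and 35.5 CPM, and was higher in the lining-like cells of 12 of 12 libraries (2.49 ± 0.22 SE, edgeR adjusted p = 5.10e-18). A UMI of Sema3a was found in 32.2% of lining-like and 1.20% of sublining-like cells (95% Wilson intervals 29.4 to 35.1% and 0.762 to 1.89%), and in 11.9% and 0.339% with each cell thinned to 2000 UMIs. These intervals treat cells as independent and leave out the spread between libraries.

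The letters before the starts of these 3 genes, and of the endothelial Sema3g, are shown because these genes had the widest differences toward lining-like cells and toward vascular endothelium. Windows run from 250 to 21 bases before the RefSeq start on GRCm38.p6, all on the plus strand, with CG dinucleotides in capitals. The Sema3a window (chr5:13396534-13396763) lies within the longer GENCODE M21 model of Sema3a and outside its exons, that of Sema3d (chr5:12382916-12383145) and that of Sema3g (chr14:31217623-31217852) lie upstream of their genes, and that of Sema5a (chr15:32244563-32244792) overlaps an exon of Snhg18, a noncoding RNA on the other strand.
Sema3a: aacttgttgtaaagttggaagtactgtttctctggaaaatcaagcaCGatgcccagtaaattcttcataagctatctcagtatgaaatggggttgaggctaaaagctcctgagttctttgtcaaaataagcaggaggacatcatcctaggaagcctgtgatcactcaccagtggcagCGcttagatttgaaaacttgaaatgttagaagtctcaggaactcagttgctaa
Sema3d: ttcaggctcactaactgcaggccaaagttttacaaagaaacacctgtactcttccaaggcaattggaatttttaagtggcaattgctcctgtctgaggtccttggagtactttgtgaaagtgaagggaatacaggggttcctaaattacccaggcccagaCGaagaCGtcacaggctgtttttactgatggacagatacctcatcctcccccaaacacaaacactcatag
Sema5a: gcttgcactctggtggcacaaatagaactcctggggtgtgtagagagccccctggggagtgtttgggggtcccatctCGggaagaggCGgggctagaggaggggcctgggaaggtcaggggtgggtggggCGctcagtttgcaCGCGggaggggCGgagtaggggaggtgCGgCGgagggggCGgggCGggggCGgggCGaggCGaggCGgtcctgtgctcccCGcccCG
Sema3g: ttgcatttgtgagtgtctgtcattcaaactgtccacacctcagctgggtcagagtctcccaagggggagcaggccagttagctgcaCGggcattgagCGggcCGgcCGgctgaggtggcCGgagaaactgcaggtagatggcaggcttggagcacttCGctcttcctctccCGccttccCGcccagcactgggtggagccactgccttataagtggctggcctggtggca

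Sema3a and Sema3d each had 2 CG dinucleotides in these 230 bases, Sema5a had 16 and Sema3g had 8, and the median over 32851 mouse promoter windows of this length was 5 (quartiles 2 and 14). A search on both strands for the TATA box string TATAAA, the AP-1 string TGANTCA, the TEAD string GGAATG and the forkhead string TGTTTAC found 0 matches in the 4 windows. All windows held them in 11.8%, 6.34%, 11.8% and 2.91% of cases, in that order. No match says only that these letters are not in these windows.

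The remaining differences between lining-like and sublining-like cells were smaller. Sema4c (1.14 ± 0.18) and Plxnb2 (0.98 ± 0.15), a ligand and receptor pair, were higher in lining-like cells in 12 of 12 libraries, and Nrp2 (0.52 ± 0.20) in 10 of 12. Nrp1 (-0.90 ± 0.16) was lower in 11 of 12 libraries, Sema3c (-0.69 ± 0.11) in 12 of 12 and Sema3b (-0.54 ± 0.20) in 8 of 12. The calls of Nrp2 and Sema3b were lost when any of 5 and of 4 libraries, respectively, was left out. Sema3c still had 59.4, 168 and 243 CPM in lining-like cells, beside 194, 261 and 462 CPM in sublining-like cells. Sema3e was not called, at 18.2, 57.8 and 112 CPM and 29.8, 62.5 and 110 CPM (log2 difference -0.07 ± 0.15 SE, edgeR adjusted p = 0.752).

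**Figure D3:**
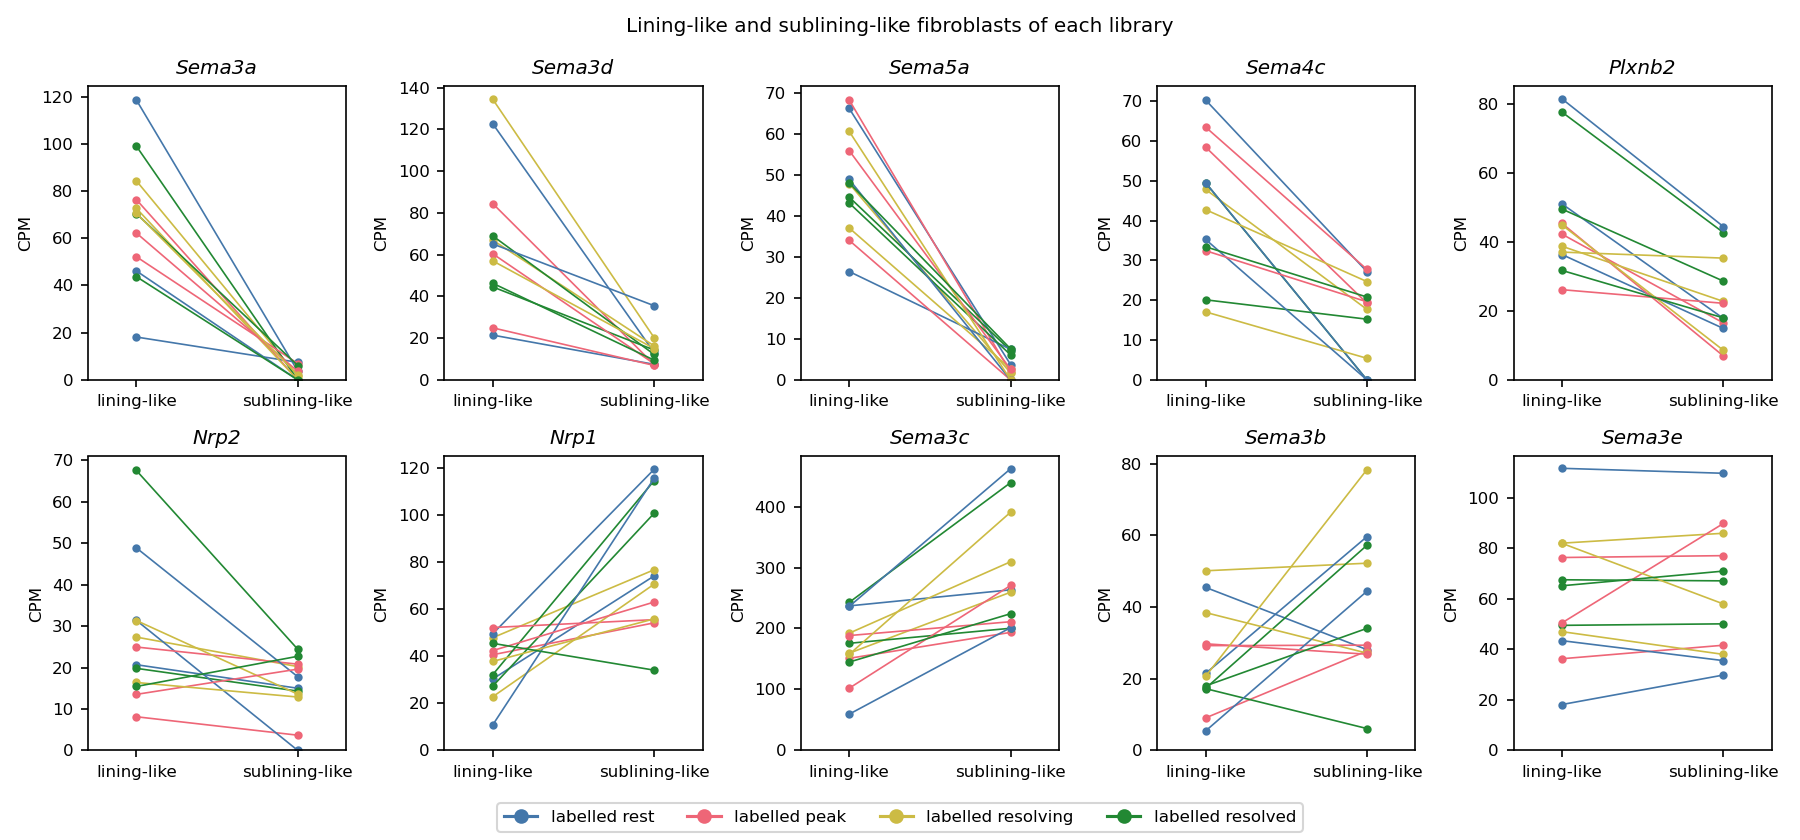
Level in CPM of 10 genes in lining-like and sublining-like fibroblasts of each library, with a line joining the 2 values of a library and colours for its label. Lines fall to the right for Sema3a, Sema3d and Sema5a in 12 of 12 libraries, rise for Nrp1 in 11 and for Sema3c in 12, and go both ways for Sema3e.

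Across the 11 fibroblast clusters, each compared with the mean of the others, 60 of 110 gene and cluster pairs were called, 33 higher and 27 lower. Over all genes and clusters 11.1% of pairs were called higher and 9.77% lower. Sema3e had the widest rise of the 10 genes in the sublining-like cluster (2.48 ± 0.15), in the Ifi205 and Ccl7 cluster (1.83 ± 0.17) and in the Inmt and Dkk2 cluster (1.09 ± 0.19), and it rose in the lining-like cluster too (2.41 ± 0.14). It was near 0 in the Nppc and Col8a1 cluster (0, 0 and 5.67 CPM), where Sema3d had the widest rise (1.76 ± 0.22). In the Ccl11 and Hmcn2 cluster it was Nrp1 (1.55 ± 0.10), with 157, 216 and 320 CPM against 10.9, 39.2 and 52.2 CPM in lining-like cells.

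Sema3a had the widest rise in the lining-like cluster (4.53 ± 0.15), in the Hp and Adamts15 cluster (1.83 ± 0.36) and in the Fbln7 and Itih2 cluster (1.01 ± 0.32). Sema3c led in the Ifi27l2a and Col14a1 cluster (1.10 ± 0.13), although it rose further in the sublining-like cluster (1.87 ± 0.09). Sema3b led in the C1qtnf3 and Spon2 cluster (0.73 ± 0.17), where 3 tenocyte markers also passed. When the upper cell limits were lifted, a cluster of 1206 cells led by C1qtnf3 and Spon2 was named tenocytes, on 5 tenocyte markers. Sema3b was higher in tenocytes too, so its rise in this cluster may not be separate from that result, which was not tested. In the Cxcl5 and Saa3 cluster 0 of the 10 genes rose and 7 fell, among them Sema3e at 0, 1.22 and 4.50 CPM over 6 libraries. Several clusters came mostly from a single run: 86.6% of the cells of the Cxcl5 cluster had suffixes 4 to 6, and 90.3%, 73.2% and 84.8% of the C1qtnf3, Ifi27l2a and Hp clusters had suffixes 7 to 9. Among the clusters that had at least 10 cells in every library, an alternative chosen after seeing the data, 39 of 70 pairs were called, beside 22.1% over all genes, and Sema3a in the Fbln7 cluster was no longer among them (0.41, edgeR adjusted p = 0.354).

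**Figure D4:**
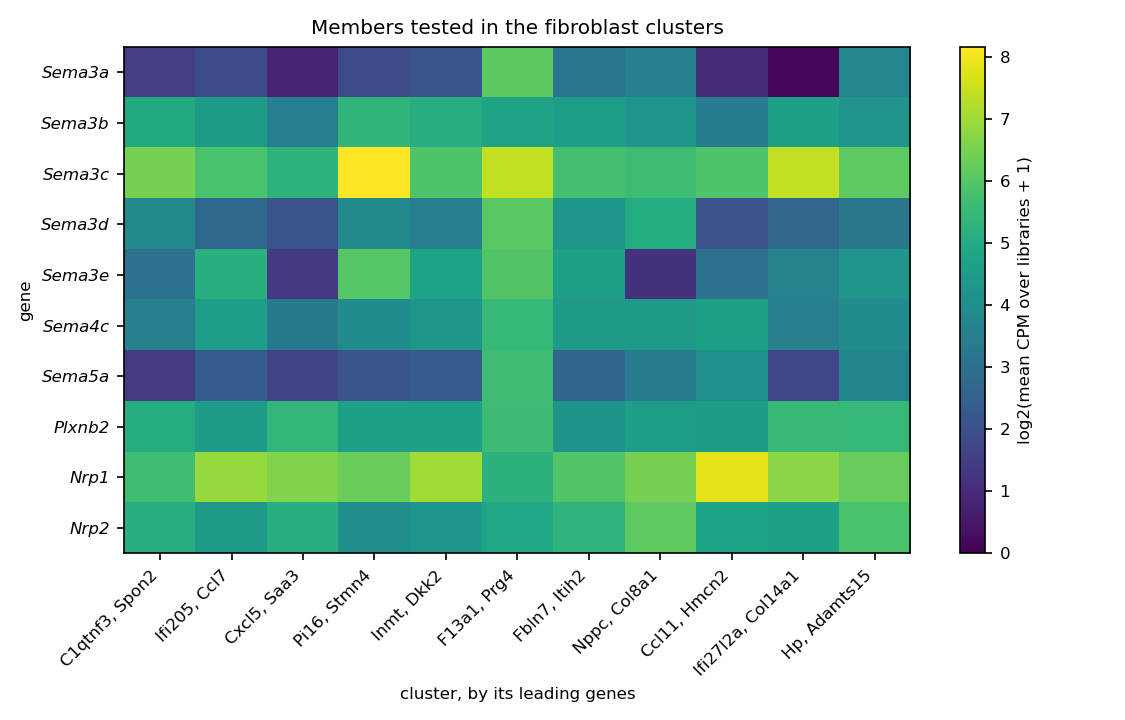
Mean level over libraries of the 10 genes tested within fibroblasts, as log2 of CPM plus 1, in 11 clusters named by their leading genes. Sema3a, Sema3d and Sema5a are brightest in the F13a1 and Prg4 cluster, Sema3c in the Pi16 cluster and Nrp1 in the Ccl11 cluster.

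By label, 0 of the 23 genes tested in fibroblasts and 0 of the 12 tested in vascular endothelium were called at peak, resolving or resolved against rest. Each of these 6 comparisons called 0% of all genes, 11858 in fibroblasts and 7009 in vascular cells. Genes with an unadjusted p under 0.05 in edgeR numbered 86, 81 and 56 in fibroblasts and 86, 184 and 104 in vascular cells at peak, resolving and resolved. Members of the family among them numbered 1, Sema6b in vascular cells at peak. The genes under 0.05 were 0.725, 0.683 and 0.472% of those tested in fibroblasts and 1.23, 2.63 and 1.48% in vascular cells. All 6 shares lie below what a p under 0.05 would give with independent libraries and no differences between labels. DESeq2 also called 0 genes in each of the 6 comparisons, members included. On simulated counts, edgeR at peak against rest recovered 11.1% of 2-fold changes in fibroblasts and 13% in vascular cells. For 4-fold changes the shares were 75.8% and 77.9%. Most changes of 2-fold were thus missed by label in the simulation. Its libraries were drawn independently and without runs, so these shares may not hold for the real libraries, which resemble each other by run.

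The lowest p in vascular cells at peak belonged to Sema6b, with 16.0 to 25.4 CPM in libraries labelled peak and 30.9 to 43.6 CPM in those labelled rest (log2 difference -0.83 ± 0.39 SE, unadjusted p = 0.0495, edgeR adjusted p = 0.999997). Plxnd1 came next, at 65.5 to 92.1 against 97.7 to 137 CPM (-0.50 ± 0.24 SE). Sema3g followed (-0.52 ± 0.33). In the resolving comparison the lowest p were those of Plxnd1 (-0.43 ± 0.24), Sema6b (-0.41 ± 0.39) and Nrp1 (0.40 ± 0.43), and in the resolved comparison those of Sema6b (-0.63 ± 0.39), Sema7a (-0.29 ± 0.27) and Sema4c (-0.34 ± 0.38). In fibroblasts they were Sema3b (-0.35 ± 0.31), Plxnb2 (-0.35 ± 0.38) and Sema6d (0.35 ± 0.38) at peak, Plxna2 (0.50 ± 0.27), Sema4a (-0.80 ± 0.46) and Sema3b (0.48 ± 0.31) in resolving, and Plxna2 (0.36 ± 0.27), Sema3d (-0.55 ± 0.58) and Plxna3 (-0.47 ± 0.52) in resolved libraries. None was called.

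Runs of barcode suffixes were compared because the libraries resembled each other by suffix in these same data. The p-values between runs thus come from a grouping chosen after seeing the data. By run, 14 of the 23 genes differed in fibroblasts, where 50.5% of all genes did, so the share is near the background. The size of each is the log2 difference between the highest and the lowest run. Sema3e had the widest, at 2.69 (edgeR adjusted p = 5.55e-08): its 12 libraries stood at 50.3, 44.8 and 47.1 CPM for suffixes 1 to 3, at 9.76, 5.20 and 6.39 CPM for 4 to 6, at 13.8, 13.3 and 10.9 CPM for 7 to 9 and at 43.8, 39.0 and 43.6 CPM for 10 to 12. The 2 outer runs did not overlap with the 2 inner ones. Within lining-like cells Sema3e was at 76.3 to 112 CPM for suffixes 1 to 3 and 18.2 to 49.5 CPM for 4 to 6, with means of 52.7 and 65.9 CPM in the later runs. Within sublining-like cells the run means were 90.9, 40.5, 46.9 and 72.9 CPM in the order of suffixes.

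Sema3d, Sema3c, Sema3a, Sema3b and Sema5a were likewise lowest for suffixes 4 to 6. Sema3c stood at 48.4 to 55.7 CPM there and at 95.8 to 139 CPM in the other 9 libraries (log2 difference 1.15, edgeR adjusted p = 3.06e-05). Sema3d differed by 1.83 and Sema3b by 1.10. Plxnb2 (0.97), Plxnd1 (1.22) and Sema7a (1.98) went the other way, with Plxnb2 at 35.5 to 46.1 CPM for suffixes 4 to 9 and 18.2 to 24.8 CPM for the rest. Sema4c (0.99) was highest for suffixes 1 to 3 and Nrp1 (0.72) for 4 to 6. Differences of Sema3a (1.54), Sema5a (1.29), Plxna1 (0.82), Sema6c (0.72) and Nrp2 (0.64) completed the 14 genes called. With each cell thinned to 2000 UMIs the Sema5a difference was 0.66 and no longer called (edgeR adjusted p = 0.560). Within lining-like cells alone 7 of 11 genes tested were called between runs, beside 20.3% of all genes. Within sublining-like cells alone edgeR called 0 of 9, with 4 at an unadjusted p under 0.05 and 3.90% of all genes called, and DESeq2 was not run there. Both alternatives were chosen after seeing the data.

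The makeup of the fibroblasts moved with the runs. The Cxcl5 cluster, low in class 3 semaphorins, made up 42.0 to 48.0% of fibroblasts for suffixes 4 to 6 and at most 5.54% elsewhere, and the sublining-like cluster, high in Sema3c and Sema3e, made up 3.09 to 4.57% there and 19.7 to 28.7% for suffixes 1 to 3. Marker lists moved as well, and not all the same way. Summed over 7 osteoblast markers, Col1a1 among them, fibroblasts had 10740 to 16310 CPM for suffixes 4 to 9 and 3622 to 5493 CPM elsewhere. None of the 7 was at 0 in all libraries. The 7 fibroblast markers went the other way, at 17204 to 25658 CPM for suffixes 4 to 9 and 46019 to 70239 CPM elsewhere. So did the 8 chondrocyte markers, at 1206 to 1774 CPM and 2063 to 3082 CPM. The part of these in the run differences was not tested.

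**Figure D5:**
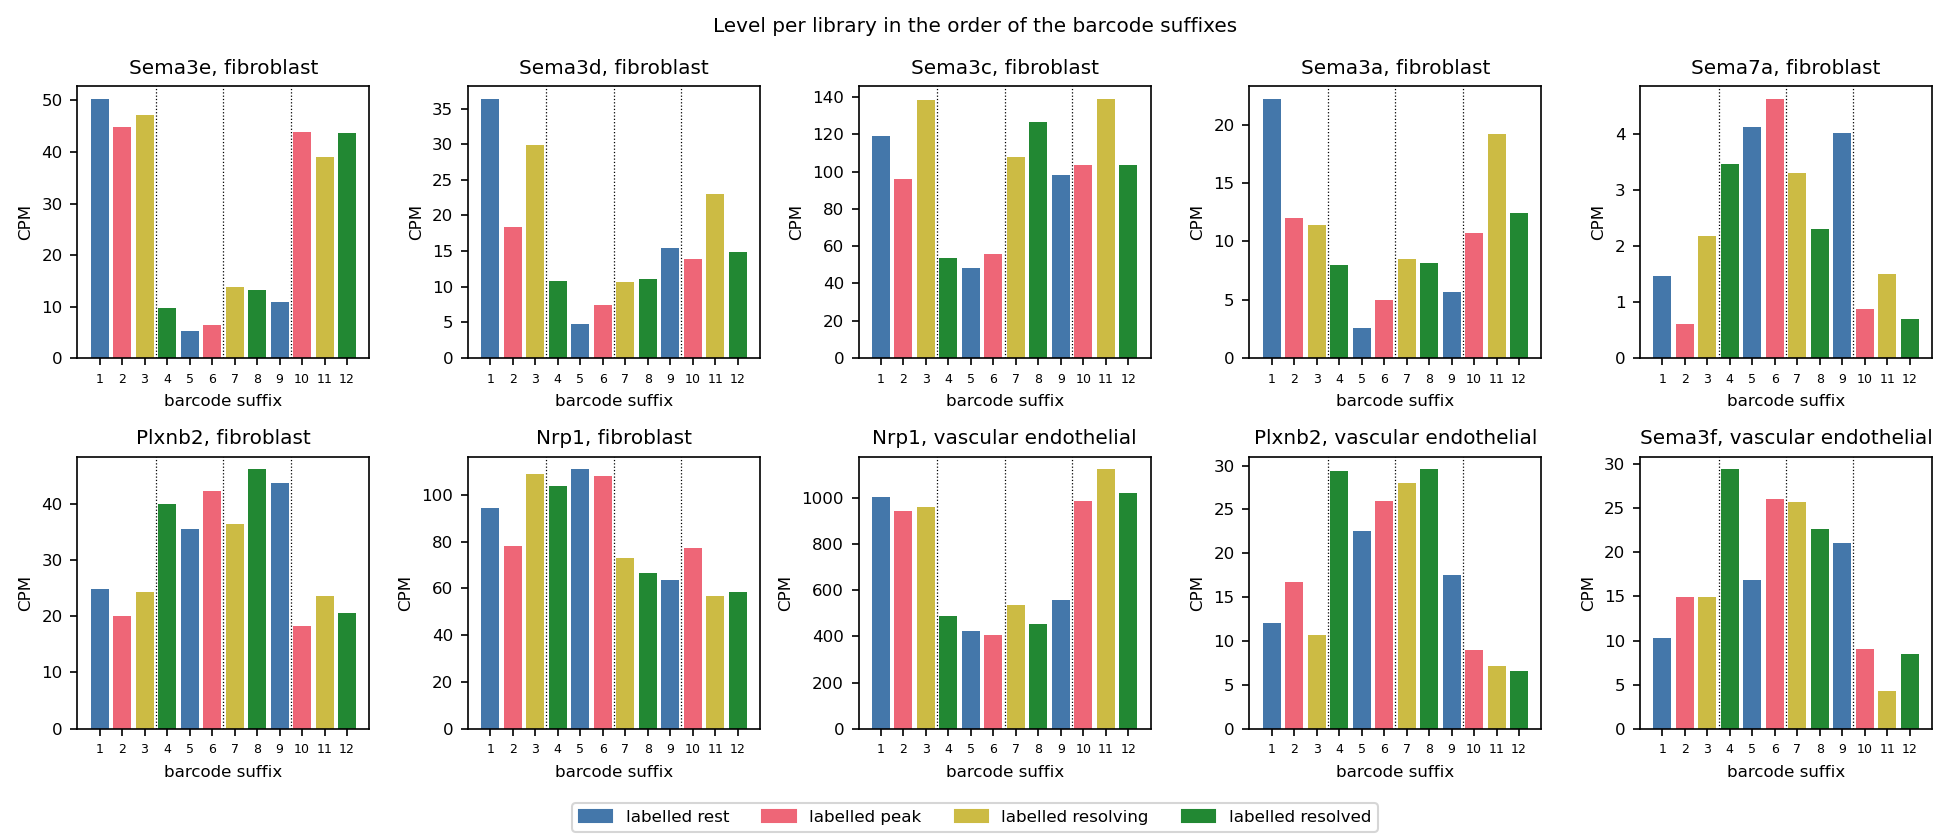
Level in CPM, from 0, of 8 genes in 10 panels for each of the 12 libraries in the order of their barcode suffixes, coloured by label, with dotted lines between the 4 runs. Bars of the same run stand near each other more than bars of the same colour for Sema3e, Plxnb2 in fibroblasts and Nrp1 in vascular cells: Sema3e in fibroblasts is at 39.0 to 50.3 CPM in the outer runs and 5.20 to 13.8 CPM in the inner ones.

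In vascular endothelium 3 of the 12 genes differed between runs, and 24.6% of all genes did. Nrp1 had 1004, 943 and 964 CPM for suffixes 1 to 3, 487, 423 and 406 CPM for 4 to 6, 537, 454 and 558 CPM for 7 to 9 and 987, 1125 and 1023 CPM for 10 to 12 (1.26, edgeR adjusted p = 3.43e-07). Plxnb2 (1.71, edgeR adjusted p = 0.00204) and Sema3f (1.57, edgeR adjusted p = 0.00927) were higher in the inner runs. Sema3g (0.19) and Sema6a (0.35) were not called.

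The capillary-led cluster, where Nrp1 is higher, held 60.7 to 86.4% of the vascular cells in the outer runs and 21.8 to 36.9% in the inner ones. Inside that cluster Nrp1 was 1108 to 1363 CPM in the outer and 745 to 1054 CPM in the inner runs, and inside the Plvap-led cluster 497 to 660 and 283 to 448 CPM, so the runs stayed apart in both. The Plvap-led cluster, where Plxnb2 and Sema3f are higher, held 63.1 to 78.2% of vascular cells in the inner runs. In the outer runs it held 13.6 to 39.3%. Plxnb2 in the Plvap-led cluster had run means of 30.9, 29.9, 29.6 and 22.0 CPM in the order of suffixes, and Sema3f 20.1, 27.7, 26.9 and 14.4 CPM. In the capillary-led cluster the run means were 0.953, 7.95, 6.51 and 3.28 CPM for Plxnb2 and 8.98, 7.12, 7.96 and 5.38 CPM for Sema3f. The summed level of 7 markers of dividing cells in vascular endothelium also moved with the runs, at 374 to 1016 CPM in the inner and 49.0 to 123 CPM in the outer ones, with none of the 7 at 0 in all libraries. Plxnb2 had a mean of 50.4 CPM in the cluster of dividing cells, above its means in the 9 other cell types. The part of the cluster shares and of these markers in the run differences was not tested.

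Of 45 genes that act beside or below these receptors, such as collapsin response mediators and VEGF receptors, 36 were tested in vascular endothelium against fibroblasts, and 15 were higher and 7 lower, where 26.3% and 27.3% of all genes were. These genes were not kept out of the clustering, so they are given as a description. The widest rises were those of the VEGF receptors Flt1 (8.14 ± 0.23), Kdr (7.84 ± 0.17) and Flt4 (5.50 ± 0.26), the last also a lymphatic marker here. The widest falls were those of Chl1 (-6.06 ± 0.39), an adhesion molecule of the L1 family, the growth factor Vegfa (-1.87 ± 0.25), which binds neuropilins, and Mical1 (-1.78 ± 0.20), an oxidase that acts on actin. Between runs in fibroblasts 17 of 37 differed, a share near the 50.5% of all genes, among them Chl1 (4.81) and Dpysl2 (1.81), which relays Sema3a signals.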

How the data were processed

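The authors aligned single-cell 3′ reads to mm10 with Cell Ranger, per the labels and methods, and deposited UMI counts per gene and cell for 12 libraries in 4 labelled groups of 3. How strand was used, and the version of the annotation, are not given in the sources used here. The deposited counts had the same median of 5358 UMIs per cell in every library, so depth differs between libraries mainly through the number of cells. How that depth was set is not given in the sources used here.

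Cells outside the limits on genes and UMIs were removed, which left 20060 of 21042. Cells were scaled to 10000 UMIs, and 2000 variable genes without the 34 semaphorin, plexin and neuropilin genes gave 30 components, 20 neighbours and Leiden clusters at resolution 1 (scanpy 1.11.5). Clusters were named from fixed markers, and 5 clusters of 1185 cells stayed unnamed. Scrublet marked 56 cells (0.279%), too few to count as a working call, so doublets were left in, and an alternative dropped the top 6% of scores in each library.

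Counts were summed per library and cell type for sums of at least 10 cells. The quasi-likelihood test of edgeR 4.0.16 (limma 3.58.1, R 4.3.3) with TMM scaling and filterByExpr was fitted over all genes. Cell types and clusters were compared with the library as a block, labels against rest without a block, and runs of barcode suffixes with an F test. The grouping into runs was chosen after seeing the data. The SE was taken as the size of the log2 fold change divided by the square root of F. Benjamini-Hochberg adjustment ran over all genes tested in each comparison. DESeq2 1.42.0 was an alternative. Tests were checked on simulated counts with known changes. Of 2-fold changes, 71.3% were recovered in vascular endothelium against fibroblasts and 97.7% in lining against sublining. At peak against rest the share was 11.1% in fibroblasts and 13% in vascular cells, on simulated libraries without runs. P-values by label and by run measure the spread between libraries, each a pool of 3 animals. Those with the library as a block measure how differences within a library vary from library to library. Shares of cells were computed with scipy 1.17.1, numpy 2.4.6 and pandas 2.3.3 in Python 3.11.15, with figures from matplotlib 3.10.9.

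Samples were grouped by the stage in GEO's labels, and replicate numbers come from the same labels. Deviations from the group means of the 18 pairs of libraries with the same number correlated between -0.51 and 0.67, and the replicate number was therefore not treated as pairing libraries. The members, partner genes and marker lists were chosen with earlier results of these data known. Genes were named by rule: in each cell type comparison the 3 members with the largest change each way past the threshold, in lining against sublining every member past it, between runs those with the 10 lowest adjusted p, by label those with the 3 lowest p, and in each fibroblast cluster the member with the largest rise. For partner genes it was the 3 largest changes each way, of which 1 is not reported here. Members added to describe a receptor or ligand were chosen after their values were seen.

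Promoter windows are from RefSeq on GRCm38.p6. Protein sequences were not used here.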

Additional observations from a re-analysis of the deposited data

Results flagged for a closer look

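In cell types with 4 to 10 libraries, 13 sets of levels of named genes were examined for a library far from the rest, and 6 held one. About 1 in 20 such sets would be picked out by chance, and sets with levels mostly at 0 are picked out by 1 or a few UMIs. Libraries are numbered within their label.

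Sema6a in muscle stood at 229 CPM in the second library labelled resolving, with the next highest at 109 CPM among 8 libraries and the lowest at 48.7 CPM. Sema3c in muscle stood at 62.8 CPM in the third library labelled resolving, with the next at 13.1 CPM. Sema4d in chondrocytes stood at 18.7 CPM in the second library labelled peak, with the next at 7.77 CPM among 8 libraries.

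In chondrocytes, Sema3e stood at 7.64 CPM in the second library labelled resolved, with the next at 1.05 CPM, and Sema3b at 7.77 CPM in the second library labelled resolving, with 0 CPM in the other 7. Sema3b in lymphatic endothelium stood at 14.9 CPM in the first library labelled rest, on 1 UMI, with 0 CPM in the other 9 libraries.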

How the results depend on the processing

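Of 87 named results past the threshold, 67 kept their call and direction under every alternative run. With each cell thinned to 2000 UMIs, 6 members were called in chondrocytes, 11 in osteoblasts, 3 in Schwann cells, 4 between lining-like and sublining-like cells, 1 between runs in vascular cells and 29 across fibroblast clusters (main counts 15, 17, 8, 9, 3 and 60). With no filter on low counts, 18 were called between lining-like and sublining-like cells and 101 across clusters. Without the highest doublet scores, 5 were called between runs in vascular cells. Counts of Schwann members ranged from 3 to 8 with 1 library left out, and were 3 without the third library labelled peak and 5 without the third labelled resolved. Alternatives chosen after seeing the data gave 7 members between runs in lining-like cells, 0 in sublining-like cells and 39 across clusters with at least 10 cells in every library. Thinning and smaller sets of cells leave fewer UMIs and fewer genes tested, and other causes were not tested.

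By label, 3 differences, none called, changed direction: Sema3b at peak with no upper limits on genes and UMIs (0.10), Sema3d in resolved fibroblasts without the first library labelled rest (0.30, with a range from -0.99 to 0.30 over libraries left out) and Plxna3 in resolved fibroblasts without the third labelled rest (0.016, with a range from -0.87 to 0.016). The cause was not tested. With the replicate block, edgeR called 0 members in each of the 6 comparisons by label, as it did without it, and 0 with the suffix runs as a block. Members at an unadjusted p under 0.05 numbered 1 with the replicate block, in vascular cells at peak. With the suffix runs as a block they numbered 2 in fibroblasts at peak and 1 each in fibroblasts and vascular cells at resolving.

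Nrp2 between lining-like and sublining-like cells ranged from 0.37 to 0.68 on the log2 scale with 1 library left out, and Sema3b from -0.73 to -0.30. In fibroblasts Sema4d, Plxnb1 and Plxnc1 rest on few UMIs per library, which limits what can be said of them. The same CPM rests on fewer UMIs in smaller sums. Lymphatic sums held 744414 UMIs over 10 libraries, and the fibroblasts of those libraries 72935719. A single UMI was 14.9 CPM in the lymphatic cells of the first library labelled rest. Muscle (707997 UMIs over 8 libraries) and Schwann sums (164326 over 3) were small too.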

Other observations

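Some cells took no part in the comparisons. The cluster of dividing cells (627 cells, led by Birc5 and Top2a) had at least 10 cells in 6 libraries. There Plxnb2 had a lowest, median and highest level of 38.9, 47.2 and 66.7 CPM, Nrp1 stood at 47.6, 93.3 and 99.4 CPM and Sema3c at 35.2, 51.9 and 110 CPM. Sema3e was low there, at 0, 6.41 and 10.4 CPM. These levels were not tested against fibroblasts.

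The 112 leukocytes left by the sort had sums in 3 libraries. Sema4a, a semaphorin known from immune cells, stood at 17.4, 49.2 and 52.3 CPM in them on 16 UMIs.

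A cluster of 940 cells led by Cytl1 and Clu stayed unnamed. With 6 fibroblast markers detected it met the rule for fibroblasts. It lost that name because Chad, a chondrocyte marker, was among its leading genes and no fibroblast marker was. Over the whole cluster Sema3c was at 52.2 CPM, Nrp2 at 39.9 CPM (exact 95% Poisson interval 35.0 to 45.3 CPM, for counting error only), Sema3e at 33.6 CPM and Sema3d at 33.0 CPM, while Nrp1 was at 13.5 CPM.

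Sema5b was too low for a test, but 23 of its 28 UMIs in named cells were in perivascular cells, at 0, 7.90 and 12.6 CPM over 12 libraries. Osteoblasts and tenocytes held 0 of its UMIs.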
